A study of Mus musculus with 2 samples.

Results

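The 9 genes described here are Ldha, Slc16a1, Hk1, Hk2, Pdgfra, Aldh1a3, Gast, Neurog3 and Sox9, which are known to be silenced or low in mature beta cells or raised in immature ones. They were taken from a fixed list by gene symbol and make up 9 of the 31053 gene rows in both count tables, in which each of the 9 was found. The cells were single-cell suspensions of handpicked pancreatic islets from wild-type NOD/ShiLtJ mice aged 15 weeks, a strain that develops autoimmune diabetes. Mice of the gluten group were fed 16% HC with 4% gluten and mice of the HC_only group 20% HC, an abbreviation that the labels do not expand. Strain, genotype and age were the same in both groups, and islet cells of 3 mice were pooled into 1 library for each diet. With 1 library per diet there is no replicate. No comparison here therefore has a test, and each interval is a 95% interval that covers counting error only.

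A mature beta cell must couple glucose to mitochondrial oxidation, because the rate of oxidation sets insulin release. Genes that would divert pyruvate to lactate, let circulating lactate or pyruvate in, or phosphorylate glucose at low concentrations are therefore kept very low in these cells and are often called disallowed genes. Other genes of the same class belong to developing islets, to ducts or to stromal cells.

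The gluten library held 88268070 UMIs (unique molecular identifiers, 1 per captured RNA molecule) in 8200 cell barcodes and the HC_only library 116900677 in 7758, of which 7577 and 7565 cells were kept. The libraries shared 15 barcode sequences. A cell was called insulin-, glucagon-, somatostatin- or PP-gated when the named hormone held at least 10% (insulin) or 3% (the others) of its UMIs and no other hormone passed its gate. This gave 1263 insulin-gated cells with gluten and 1547 with HC_only, 1093 and 588 glucagon-gated, 571 and 267 somatostatin-gated, and 32 and 30 PP-gated cells. Markers that were not used for the gates were read as a check. Summed beta-cell markers stood at 41797 and 49338 CPM (UMIs scaled to a total of 1000000 in the cell class) in insulin-gated cells, against 1117 and 1215 CPM in glucagon-gated cells. Summed delta-cell markers stood at 13243 and 13582 CPM in somatostatin-gated cells, against 250 and 245 CPM in insulin-gated cells. They stood at 2085 and 1952 CPM in glucagon-gated cells and at 1122 and 1339 CPM in PP-gated cells. The beta list, which includes Iapp and Pdx1, genes that delta cells also express, stood at 26454 and 33779 CPM in somatostatin-gated cells too, and the PP-cell list, which includes Pyy, at 23418 and 29199 CPM. Insulin itself made up 0.646% and 0.478% of UMIs in somatostatin-gated cells. The 3589 and 4309 non-endocrine cells were gated by markers and were mostly T cells (1325 and 2274), B cells (1094 and 1208) and myeloid cells (513 and 453). Another 263 and 311 hormone-gated cells carried 5 or more markers of a non-endocrine class and were set aside as possible mixtures of cells.

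Promoters of Ldha, Slc16a1 and Hk2, which were low together in insulin-gated cells, are shown because they hold the letters ACGTG and were chosen for it after the search, and the promoter of Neurog3 because its level was highest in somatostatin-gated cells. RefSeq windows of 250 bases before the gene start (GRCm38.p6, the same assembly as mm10) were matched for 7 of the 9 genes. The letters ACGTG, the core of the hypoxia response element and part of the E-box CACGTG, occurred on either strand in 3 of the 9 windows of these 7 genes and in 16.6% of all 32851 windows. Both windows of Hk1 and the window of Pdgfra, other members low in insulin-gated cells, did not hold it, nor did the second window of Ldha. Capitals mark every ACGTG on either strand in Ldha (chr7:46845554-46845803, + strand), Slc16a1 (chr3:104638414-104638663, + strand) and Hk2 (chr6:82774455-82774704, - strand), and every CANNTG in Neurog3 (chr10:62132840-62133089, + strand).
Ldha: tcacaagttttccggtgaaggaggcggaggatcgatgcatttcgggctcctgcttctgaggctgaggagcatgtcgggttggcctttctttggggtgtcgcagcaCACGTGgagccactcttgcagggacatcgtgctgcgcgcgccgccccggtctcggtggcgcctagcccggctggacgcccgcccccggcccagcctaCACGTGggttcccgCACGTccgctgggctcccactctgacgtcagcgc
Slc16a1: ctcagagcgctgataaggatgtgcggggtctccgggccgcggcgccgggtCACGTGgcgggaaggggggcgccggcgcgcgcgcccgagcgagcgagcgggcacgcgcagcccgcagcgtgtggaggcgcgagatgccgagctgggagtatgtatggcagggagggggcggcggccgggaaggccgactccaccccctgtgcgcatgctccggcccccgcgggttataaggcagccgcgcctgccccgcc
Hk2: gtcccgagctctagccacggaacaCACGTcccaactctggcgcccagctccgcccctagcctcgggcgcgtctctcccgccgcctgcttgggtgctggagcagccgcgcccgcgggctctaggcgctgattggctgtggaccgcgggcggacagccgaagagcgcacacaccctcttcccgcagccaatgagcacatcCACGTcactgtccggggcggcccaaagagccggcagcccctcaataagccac
Neurog3: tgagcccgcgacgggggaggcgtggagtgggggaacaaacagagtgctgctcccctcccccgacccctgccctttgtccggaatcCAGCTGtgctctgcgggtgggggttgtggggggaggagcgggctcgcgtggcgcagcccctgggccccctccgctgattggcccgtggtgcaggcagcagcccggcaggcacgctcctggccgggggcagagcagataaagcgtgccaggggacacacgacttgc
The full E-box CACGTG, in which ACGTG is read on both strands, stood in the windows of Ldha and Slc16a1, beginning 145 and 48 bases before the start in Ldha and 200 bases before it in Slc16a1, and in 6.02% of all windows. The general E-box CANNTG was found for 6 of the 7 genes but also in 66.2% of all windows. The Ldha window lies inside the annotated gene, upstream of most of its transcripts and in no annotated exon, since one transcript starts further upstream. These matches describe the letters only, and no binding was measured.

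Of the 9 genes, 6 were measured, meaning that they had at least 50 UMIs in the group with the higher CPM, and were at least 2-fold lower in insulin-gated than in non-endocrine cells in both libraries: Ldha, Slc16a1, Hk1, Hk2, Pdgfra and Sox9. Among all 12372 genes measured, 53.8% were lower by the same rule. With gluten each of the 6 had under 50 UMIs in insulin-gated cells, so it could only be called lower. With HC_only this held for all but Ldha, which had 56 UMIs there. Insulin transcripts took up 62.1% of UMIs in insulin-gated cells with gluten. CPM was also computed without hormone, acinar and mitochondrial genes, and is called CPM without hormone genes from here on. It moved every log2 ratio of insulin-gated cells up by 1.43 and 1.42, and 23.5% of genes were then lower. The same 6 genes still were, and their median log2 ratio by the plain CPM was -8.13 with gluten and -8.21 with HC_only, taking genes without a UMI at their bound, against -1.23 and -1.30 over all measured genes. The other 3 genes, Aldh1a3, Gast and Neurog3, had too few UMIs in either group for a call. With HC_only Gast (0.347 against 0.0457 CPM) and Neurog3 (0.396 against 0.0457 CPM) stood higher in insulin-gated than in non-endocrine cells. Aldh1a3 stood lower (0.0826 against 0.229 CPM). The directions were the same with gluten, but the intervals of the compared groups overlapped there for all 3 genes. Gast then stood at 0.428 against 0.261 CPM, Aldh1a3 at 0.0802 against 0.457 CPM, and Neurog3 at 0.0802 CPM (3 UMIs) against 0.0654 CPM (1 UMI). Of called genes, the share that was lower went from 83.4% to 47.4% with gluten in CPM without hormone genes. With HC_only it went from 82.2% to 48.7%.

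**Figure D1:**
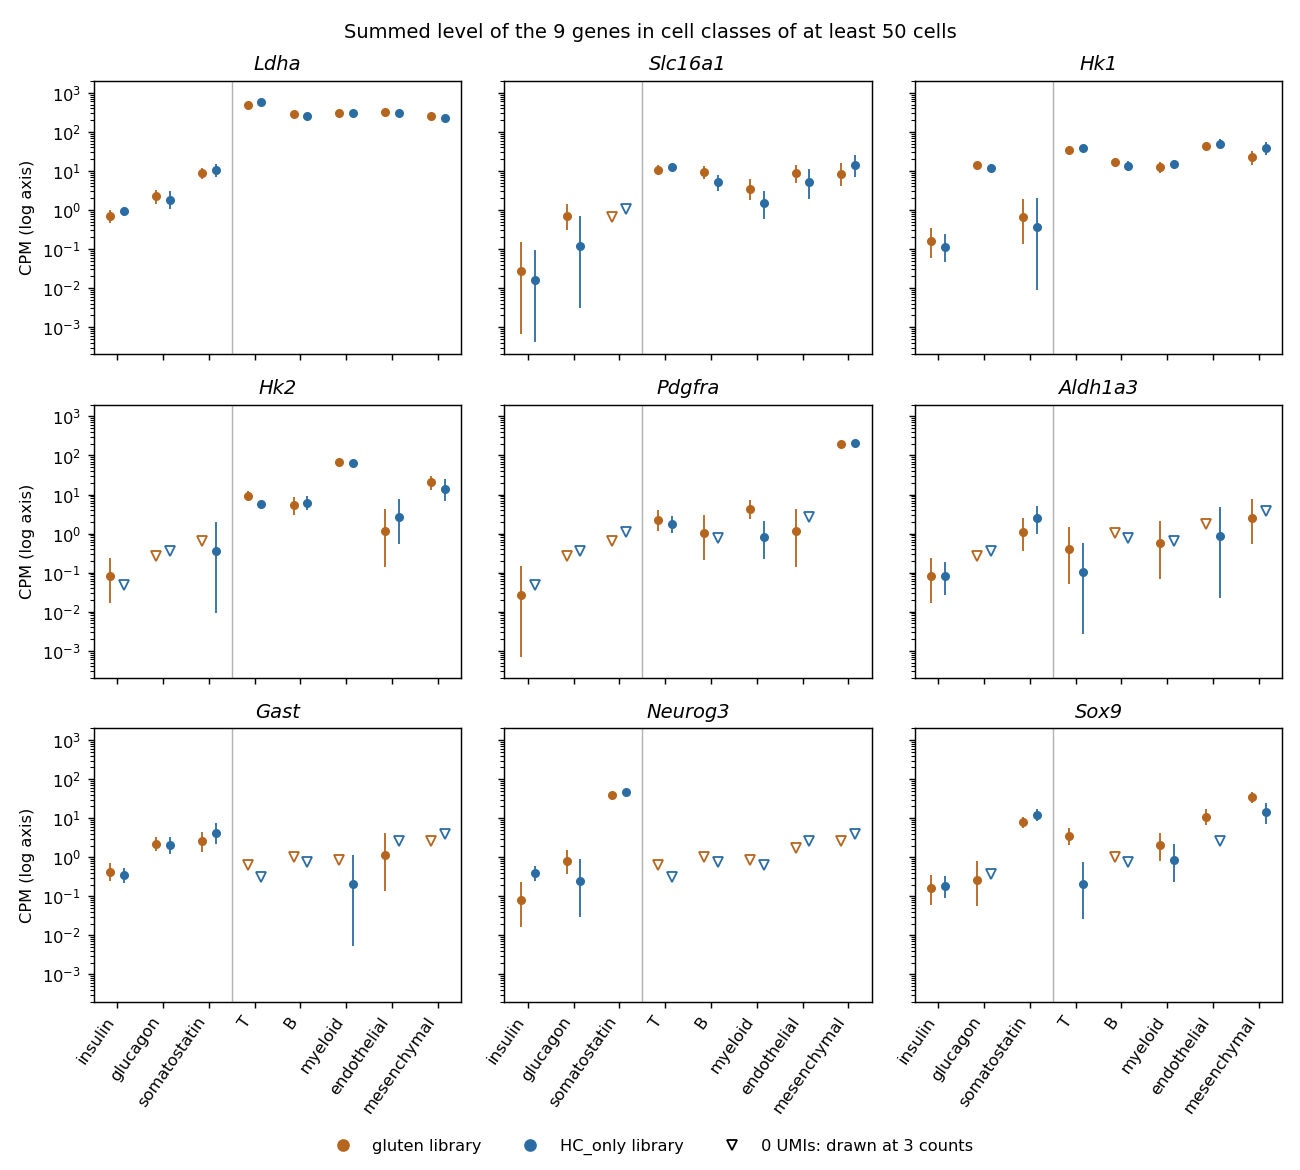
CPM on a log axis (vertical) of each gene in the 8 cell classes with at least 50 cells in both libraries (horizontal), with 95% Poisson intervals for the gluten library (brown) and the HC_only library (blue), and open triangles at 3 counts where no UMI was seen. Ldha was between 229 and 595 CPM in all 5 non-endocrine classes and at most 10.3 CPM in the 3 hormone-gated classes, while Neurog3 stood at 39.0 and 48.2 CPM in somatostatin-gated cells and at most at 0.804 CPM in the other classes.

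Ldha (chromosome 7, 46841475 to 46855627, + strand, mm10) encodes the lactate dehydrogenase subunit that turns pyruvate into lactate. It stood at 0.695 CPM (0.454 to 1.02, 26 UMIs) in insulin-gated cells with gluten and at 0.925 CPM (0.699 to 1.20, 56 UMIs) with HC_only. Non-endocrine cells held 350 and 408 CPM, so that insulin-gated cells were 503-fold lower with gluten (log2 -8.97, -9.59 to -8.42) and 441-fold lower with HC_only (log2 -8.78, -9.19 to -8.41). T cells were highest, at 490 and 595 CPM, followed by endothelial cells (331 and 309), myeloid cells (311 and 306), B cells (281 and 258) and mesenchymal cells (259 and 229). Endothelial and myeloid cells did not differ beyond counting error in either library, nor did B and mesenchymal cells.

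The hormone-gated types were ordered the same way in both libraries, with Ldha lowest in insulin-gated, then glucagon-gated, then somatostatin-gated cells. Glucagon-gated cells held 2.23 CPM with gluten and 1.84 with HC_only, and somatostatin-gated cells 8.87 (6.37 to 12.0) and 10.3 (6.93 to 14.9). Somatostatin-gated cells were thus 12.8-fold and 11.2-fold above insulin-gated cells, and 5.95-fold and 5.12-fold above them in CPM without hormone genes. The step from insulin- to glucagon-gated cells was smaller, with a log2 ratio in CPM without hormone genes of 0.89 (0.03 to 1.74) with gluten and 0.29 (-0.63 to 1.14) with HC_only, which spans 0 with HC_only. The PP-gated cells held 10 UMIs (19.9 CPM) and 4 UMIs (5.85 CPM) of Ldha, and 8 of the 10 came from 1 cell.

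Leukocyte markers were compared between cells with and without an Ldha UMI. The 25 insulin-gated cells with an Ldha UMI in the gluten library held 89.9 CPM of summed leukocyte markers, against 39.4 CPM in the 1238 cells without, while with HC_only the values were 41.1 and 36.0 CPM. Glucagon-gated cells with Ldha held 354 CPM against 53.1 CPM without it with gluten, and 90.6 against 55.3 CPM with HC_only. In somatostatin-gated cells the values were 181 against 63.9 CPM with gluten and 62.6 against 70.1 CPM with HC_only, where cells with Ldha had slightly less. Ldha in insulin-gated cells was at 0.142% and 0.155% of its T-cell level, and the median of the 10 T-cell markers was at 0.0538% and 0.0675% of theirs, with a highest marker at 0.0834% and 0.159%. All 10 markers were detected there in both libraries, and 0 and 1 of them stood at or above Ldha. In somatostatin-gated cells Ldha was at 1.81% and 1.74% of the T-cell level, against a median marker at 0.285% and 0.227% and a highest at 1.91% and 1.82%. The part of such RNA in the low Ldha levels was not tested. The cells set aside for markers of another class held 63.3 and 59.2 CPM of Ldha. With them kept, insulin-gated cells came to 3.64 and 6.10 CPM, glucagon-gated to 15.4 and 27.3, and somatostatin-gated to 20.6 and 21.3, so that with HC_only glucagon-gated cells were then the highest. With cells of 3 or more such markers also set aside, the levels were 0.582 and 0.844, 1.09 and 1.57, and 9.24 and 10.6 CPM, in the order given above.

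Slc16a1 (chromosome 3, 104638668 to 104658462, + strand) encodes MCT1, a carrier of lactate and pyruvate across the cell membrane. Insulin-gated cells held 1 UMI in each library, and somatostatin-gated cells held 0 in both. Glucagon-gated cells held 8 UMIs (0.714 CPM) with gluten and 1 UMI with HC_only. Non-endocrine cells held 7.78 and 7.81 CPM, and T cells 10.6 and 12.8. The log2 ratio of insulin-gated over non-endocrine cells was -8.18 (-13.5 to -5.68) with gluten and -8.89 (-14.2 to -6.39) with HC_only, the wide intervals reflecting the single UMI. Somatostatin-gated cells were at least 12.0-fold lower with gluten and at least 7.30-fold lower with HC_only, taking 3 counts over the group in place of 0.

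Hk1 and Hk2 encode hexokinases with a high affinity for glucose. Hk1 (chromosome 10, 62268855 to 62379908, - strand) differed between hormone-gated types: glucagon-gated cells held 13.8 CPM (11.7 to 16.1, 154 UMIs) with gluten and 12.1 CPM (9.86 to 14.8, 99 UMIs) with HC_only. Insulin-gated cells held 0.160 CPM (6 UMIs) and 0.116 CPM (7 UMIs), and somatostatin-gated cells 3 UMIs and 1 UMI. The few PP-gated cells held 15.9 CPM (6.86 to 31.3, 8 UMIs) with gluten and 7.31 CPM (2.37 to 17.1, 5 UMIs) with HC_only. Their intervals overlapped those of glucagon-gated cells in both libraries. Glucagon-gated cells were thus 85.7-fold and 105-fold above insulin-gated cells, or 49.4-fold and 64.7-fold in CPM without hormone genes. At least 1 Hk1 UMI was seen in 13.4% and 14.8% of glucagon-gated cells, whose median depths were 9192 and 12838.5 UMIs, and in 0.475% and 0.452% of the deeper insulin-gated cells at 26980 and 36417 UMIs. The Hk1 level of glucagon-gated cells lay near that of myeloid cells (12.4 and 14.7 CPM) and of B cells (16.5 and 13.3), and its interval overlapped theirs in both libraries. Endothelial cells (43.3 and 49.6 CPM) and T cells (33.3 and 38.9) were higher. Against all non-endocrine cells, Hk1 in glucagon-gated cells had log2 ratios of -0.82 (-1.10 to -0.55) with gluten and -1.19 (-1.51 to -0.88) with HC_only, and of -0.19 and -0.47 in CPM without hormone genes.

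Hk2 (chromosome 6, 82725025 to 82774454, - strand) had 3 UMIs and 0 UMIs in insulin-gated cells, 0 in glucagon-gated cells of both libraries, and 0 and 1 in somatostatin-gated cells. It was highest in myeloid cells, at 69.4 and 63.3 CPM, and next in mesenchymal cells, at 20.6 and 14.1. In insulin-gated cells it was lower than in non-endocrine cells by a log2 ratio of -8.08 (-10.4 to -6.52) with gluten. Taking 3 counts in place of 0, it was at least 369-fold lower there with HC_only.

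Other genes of glucose and pyruvate use were read from lists chosen with these data known. Of 18 measured genes of glucose uptake and glycolysis, 4 were at least 2-fold higher and 8 lower in insulin-gated than in non-endocrine cells with gluten, where 11.2% of all measured genes were higher and 56.5% lower. The counts were 3 and 9 with HC_only, where 12.6% were higher and 58.4% lower. Slc2a2, the glucose carrier of beta cells, had the highest log2 ratio of the list, at 4.44 with gluten and 4.88 with HC_only. Hk3, another high-affinity hexokinase, and the glucose carrier Slc2a3 were lowest, at -7.47 and -6.29 with gluten and -9.22 and -6.05 with HC_only. Of 12 measured genes of lactate and pyruvate handling, 1 was higher and 5 and 6 were lower. The lactate exporter Slc16a3, a paralogue of Slc16a1, had 0 UMIs in insulin-gated cells of both libraries, and Pcx, which feeds pyruvate into the mitochondrial cycle, had log2 ratios of 3.19 and 3.45. Slc16a7, another monocarboxylate carrier, differed between hormone-gated types, with 29.2 and 42.5 CPM in somatostatin-gated cells and 0.187 and 0.264 CPM in insulin-gated cells.

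Pdgfra (chromosome 5, 75152292 to 75198215, + strand), a receptor for platelet-derived growth factor found on fibroblasts, was highest in mesenchymal cells. These held 192 CPM with gluten and 203 CPM with HC_only, and the next class held 4.34 and 1.80 CPM. A single Pdgfra UMI was seen in 1263 insulin-gated cells with gluten and 0 in 1547 with HC_only, which allows a share of up to 0.194% of cells with a UMI. Glucagon- and somatostatin-gated cells held 0 in both libraries. The log2 ratio of insulin-gated over non-endocrine cells was -9.29 (-14.6 to -6.80) with gluten, and Pdgfra was at least 167-fold lower with HC_only. Of the 5 other measured genes of this pathway, 4 were lower in insulin-gated cells in each library, beside 56.5% and 58.4% of all measured genes. The ligand gene Pdgfa was the exception, at log2 ratios of -0.99 and -0.88, which turned to 0.45 and 0.54 in CPM without hormone genes.

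Aldh1a3 (chromosome 7, 66390890 to 66427517, - strand) makes retinoic acid from retinaldehyde and is known as a mark of beta cells that have lost their identity. It was seen as 3 UMIs in insulin-gated cells with gluten and 5 with HC_only, that is 0.0802 CPM (0.0165 to 0.234) and 0.0826 CPM (0.0268 to 0.193), in 3 and 4 cells. Somatostatin-gated cells, which were fewer, held 5 UMIs (1.08 CPM, 0.351 to 2.53) and 7 UMIs (2.50 CPM, 1.00 to 5.15), glucagon-gated cells 0 in both libraries, and all non-endocrine cells 7 and 5. The intervals of insulin- and somatostatin-gated cells did not overlap in plain CPM. When hormone UMIs alone were left out of CPM, insulin-gated cells held 0.212 and 0.221 and somatostatin-gated cells 1.39 and 3.14. On that scale the intervals overlapped with gluten and not with HC_only. Every class was under the minimum of 50 UMIs, so no difference of Aldh1a3 was called.

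Gast (chromosome 11, 100334407 to 100336996, + strand) encodes gastrin, a stomach hormone that is also made in the fetal pancreas. Insulin-gated cells held 16 and 21 UMIs (0.428 and 0.347 CPM), glucagon-gated cells 25 and 17 (2.23 and 2.08 CPM), and somatostatin-gated cells 12 and 12 (2.60 and 4.28 CPM). Non-endocrine cells, although more numerous, held 4 UMIs and 1 UMI. Every insulin- and glucagon-gated cell with Gast had a single UMI, and so 1.27% to 2.89% of the cells of these types carried it. Glucagon-gated cells were 5.22-fold and 6.01-fold above insulin-gated cells, or 3.01-fold and 3.71-fold in CPM without hormone genes. Somatostatin- and glucagon-gated cells did not differ beyond counting error, with log2 ratios of 0.22 (-0.91 to 1.26) and 1.04 (-0.16 to 2.19). One HC_only cell that was set aside held 10 Gast UMIs.

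Neurog3 (chromosome 10, 62133090 to 62134763, + strand) encodes the transcription factor that commits pancreatic progenitors to the endocrine fate. Somatostatin-gated cells held 39.0 CPM (33.5 to 45.1, 180 UMIs) with gluten and 48.2 CPM (40.4 to 57.0, 135 UMIs) with HC_only. Insulin-gated cells held 3 UMIs (0.0802 CPM) and 24 UMIs (0.396 CPM), glucagon-gated cells 9 and 2, and all non-endocrine cells 1 in each library. Somatostatin-gated cells were thus 486-fold and 122-fold above insulin-gated cells, and 48.5-fold and 197-fold above glucagon-gated cells, the latter with log2 intervals of 4.64 to 6.75 and 5.74 to 10.7. In CPM without hormone genes these were 227-fold and 55.6-fold above insulin-gated cells and 39.3-fold and 146-fold above glucagon-gated cells. The folds depend on the gates: with stricter gates (20% insulin, 10% others), which keep more cells with some of a second hormone, Neurog3 stood at 38.1 and 47.3 CPM in somatostatin-gated, 0.497 and 0.634 in insulin-gated and 2.23 and 1.66 in glucagon-gated cells. Against the non-endocrine cells, Neurog3 was the 1 member of 7 measured that was at least 2-fold higher in somatostatin-gated cells. Among all measured genes 14.9% were higher in both libraries, so a count of 1 is near that share.

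A Neurog3 UMI was found in 139 of the 571 somatostatin-gated cells with gluten (24.3%, 20.9 to 28.1) and in 96 of 267 with HC_only (36.0%, 30.2 to 42.0). The corresponding shares were 0.238% and 1.16% of insulin-gated cells, whose median depths were 26980 and 36417 UMIs against 7853 and 10184, and 0.0279% and 0.0232% of non-endocrine cells. Thinned to 5000 UMIs per cell, 16.8% and 20.7% of somatostatin-gated cells had one. No somatostatin-gated cell held more than 4 UMIs, and 1 HC_only cell set aside for markers of another class held 7. Cells with and without Neurog3 had Hhex, a transcription factor of delta cells, in 97.1% and 90.5% of cells with gluten and in 96.9% and 93.6% with HC_only. Sox9 was found in 5.76% of the cells with Neurog3 and 5.09% of those without with gluten, and in 9.38% and 9.36% with HC_only.

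Cells that passed 2 hormone gates, which were kept out of every class above, held more Neurog3 where somatostatin was 1 of the 2. Cells with insulin and somatostatin held 8.60 CPM (74 cells) and 13.0 CPM (63 cells), and cells with glucagon and somatostatin 15.7 CPM (93 cells) and 18.9 CPM (38 cells). Cells with insulin and glucagon held 1.45 and 0.894 CPM in 60 and 43 cells. Hk1 was higher where glucagon was present, at 5.78 and 2.24 CPM with insulin and glucagon and at 0.819 CPM and 0 with insulin and somatostatin. Cells with 2 hormones and droplets with 2 cells cannot be told apart here, and no doublet caller was run.

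**Figure D2:**
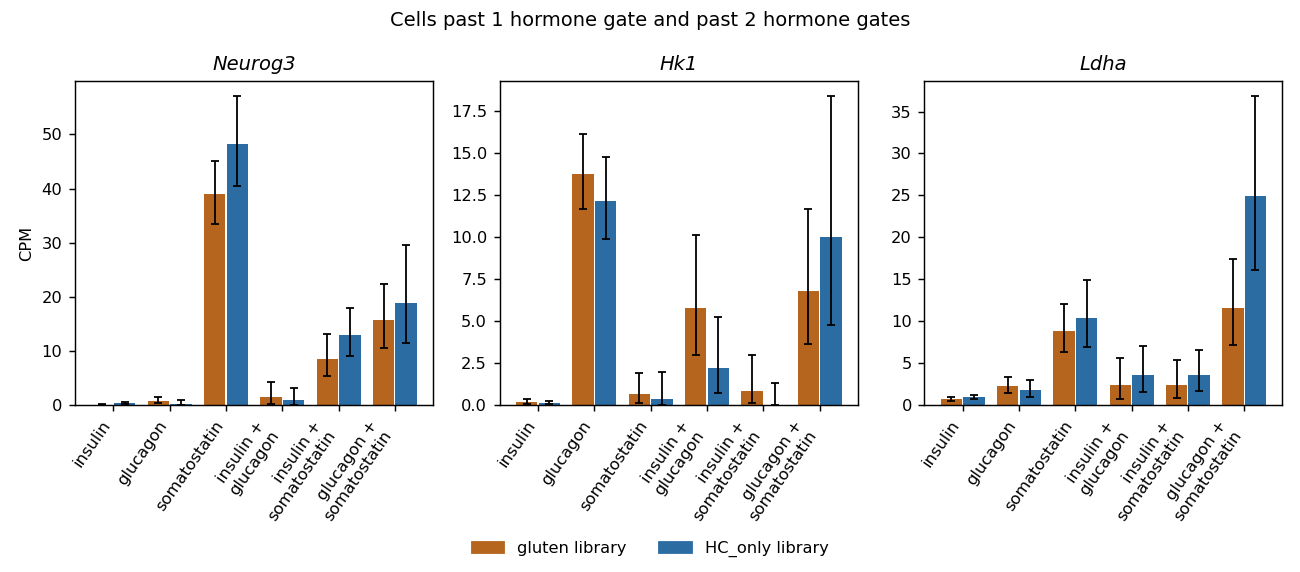
CPM (vertical, from 0) of Neurog3, Hk1 and Ldha in cells past 1 hormone gate and in cells past 2 gates (horizontal), by library (colour), with 95% Poisson intervals. Neurog3 bars are tall where somatostatin passed its gate and Hk1 bars where glucagon did, with 39.0 and 48.2 CPM of Neurog3 in somatostatin-gated cells and 13.8 and 12.1 CPM of Hk1 in glucagon-gated cells.

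The 24 Neurog3 UMIs of insulin-gated cells with HC_only lay in 18 cells, with at most 4 in 1 cell. These 18 cells held 1.30% of their UMIs as somatostatin, against 0.0370% in the 1529 others, and 54.6% as their median insulin share against 62.2%. With the cells split into 3 equal groups by insulin share, 16 of the 24 UMIs fell in the lowest group, 8 in the middle and 0 in the highest.

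Sox9 (chromosome 11, 112782224 to 112787760, + strand) encodes a transcription factor of pancreatic progenitors and adult duct cells. It stood at 517 CPM in 28 ductal cells with gluten and 596 CPM in 30 with HC_only. Somatostatin-gated cells held 8.01 CPM (5.64 to 11.0, 37 UMIs) and 12.1 CPM (8.40 to 17.0, 34 UMIs), insulin-gated cells 0.160 and 0.182 CPM (6 and 11 UMIs), and glucagon-gated cells 3 UMIs and 0. Somatostatin-gated cells were thus 49.9-fold and 66.8-fold above insulin-gated cells, or 23.3-fold and 30.6-fold in CPM without hormone genes. The Sox9 UMIs lay in 30 and 25 somatostatin-gated cells, with at most 3 and 6 in 1 cell. Of 8 duct markers with at least 50 UMIs in ductal cells, 5 and 6 stood in somatostatin-gated cells at a higher percent of their ductal level than Sox9, which stood at 1.55% and 2.04%, and 1 was at 0 (Mmp7 with gluten, Krt19 with HC_only). Their sum was at 3.30% and 3.11% of its ductal level, and the highest marker, Tspan8, at 42.5% and 51.7%. In insulin-gated cells the highest marker, Krt7, stood at 38.6% and 40.4% of its ductal level, and Sox9 at 0.0310% and 0.0305%. The part of duct RNA in this Sox9 level was not tested. Insulin-gated cells were lower than non-endocrine cells by log2 ratios of -6.89 (-8.35 to -5.76) and -6.68 (-7.70 to -5.83). The few ductal cells gave 205 of the 292 non-endocrine Sox9 UMIs with gluten and 391 of the 408 with HC_only. Mesenchymal cells held 35.1 and 14.1 CPM, T cells 3.52 and 0.212 CPM, and B cells 0 in both libraries. The ratio is therefore not one against most non-endocrine cells.

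**Figure D3:**
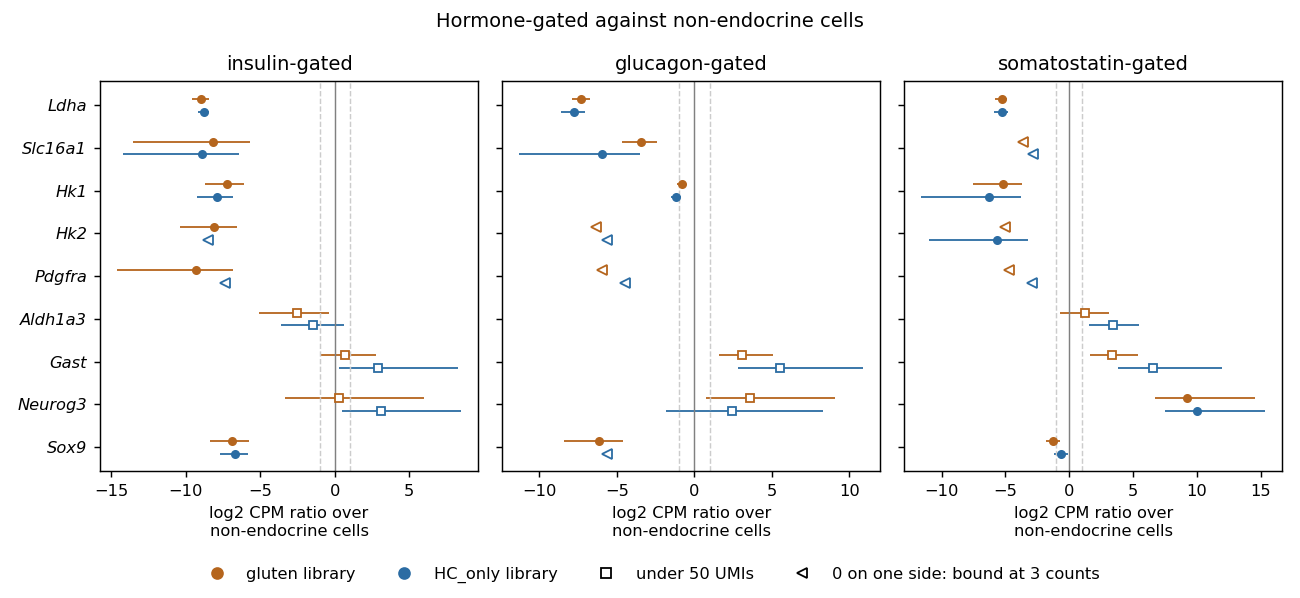
Log2 ratio of CPM (horizontal) in insulin-, glucagon- and somatostatin-gated cells over all non-endocrine cells for the 9 genes (vertical), with exact 95% conditional intervals, by library (colour). Dashed lines mark 2-fold, open squares genes under 50 UMIs, and triangles bounds where one side had no UMI. In insulin-gated cells 6 genes lie left of the 2-fold line in both libraries, while Hk1 in glucagon-gated cells lies close to it and Neurog3 in somatostatin-gated cells lies far to the right.

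In glucagon-gated cells 6 of the 9 genes were measured, and 5 of these were at least 2-fold lower than in non-endocrine cells in both libraries. Among all measured genes 32.5% were (23.2% in CPM without hormone genes). Hk1 was the member that passed the 2-fold limit in the HC_only library alone. In somatostatin-gated cells the count was also 5, here of 7 measured genes, with Ldha, Slc16a1, Hk1, Hk2 and Pdgfra lower. Among all measured genes 29.9% were lower (26.8% in CPM without hormone genes). Sox9 passed the limit there with gluten (log2 -1.25) and not with HC_only (log2 -0.62), and its direction with gluten turned to 0.53 when CPM was averaged over cells. In the few PP-gated cells 3 of 6 measured genes were lower, beside 43.6% of all measured genes (29% in CPM without hormone genes). That count rests on 32 and 30 cells. Low levels of Ldha, Slc16a1, Hk2 and Pdgfra were therefore seen in all 3 larger hormone-gated types, while Hk1 was low in insulin- and somatostatin-gated cells. The non-endocrine level of Pdgfra came mostly from mesenchymal cells (224 of 256 UMIs with gluten and 159 of 181 with HC_only). B and endothelial cells also held 0 Pdgfra UMIs with HC_only. Sox9 was low in insulin- and glucagon-gated cells against a non-endocrine level that came mostly from ductal cells.

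Further genes described as low in beta cells, from a list chosen with these data known, were also low. All 19 measured genes of this list were at least 2-fold lower in insulin-gated cells in each library, beside 56.5% and 58.4% of all measured genes. Their median log2 ratios were -7.99 and -8.36. Only 4 of the list reached the minimum of UMIs for the diet comparison in insulin-gated cells. Genes under that minimum there could only be called lower. Glucagon-gated cells had 19 and 18 of them lower, beside 34.6% and 38.5% of all measured genes, and somatostatin-gated cells 18 and 17, beside 31% and 34.5%. Maf and Fcgrt were lowest in insulin-gated cells with gluten, at log2 ratios of -9.24 and -9.15, and Itih5 and Hsd11b1 with HC_only, at -10.85 and -9.69. The exceptions included Oat, a mitochondrial aminotransferase, in glucagon-gated cells with HC_only, at a log2 ratio of -0.78. Acot7, an acyl-CoA thioesterase, was at 66.7 and 52.1 CPM in somatostatin-gated cells and at 0.481 and 0.297 CPM in insulin-gated cells. In the opposite direction, all 11 measured genes of mature beta cells were higher in insulin-gated cells in each library, with median log2 ratios of 4.96 and 5.95. Of 11 measured progenitor and Notch genes, 5 were higher and 5 lower in each library, beside the 11.2% and 12.6% of all measured genes that were higher and the 56.5% and 58.4% that were lower. Neurod1, a target of Neurog3, had log2 ratios of 4.89 and 5.85, and the receptor gene Notch2 of -6.39 and -6.76.

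Across the 8 larger classes of both libraries, taken as 16 points that share their library, depth and non-endocrine makeup, the genes most like a member in log2(CPM + 1) were listed among 12277 genes. This was done for members with at least 50 UMIs in 1 of these classes, which left out Aldh1a3, Gast and Sox9. Pdgfra followed Mfap4 (Pearson r = 0.997), Cdh11 and Col6a2, all genes of mesenchymal cells. Neurog3 followed Kcnd2 (r = 0.996), Lmo3 and Cacng2. Ldha followed Smarcd2 (r = 0.985), Cnn2 and Prelid1, Hk2 followed Slc29a3 (r = 0.974), Calhm6 and Zeb2os, Slc16a1 followed Plekhg2 (r = 0.957), Rbms2 and Gnai3, and Hk1 followed Fas (r = 0.948), Myl12a and Nin. These values describe the points and carry no test.

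Between the diets, 1 member was measured in each of the 3 larger hormone-gated types, and none of these differed by 2-fold. They were Ldha in insulin-gated, Hk1 in glucagon-gated and Neurog3 in somatostatin-gated cells. In PP-gated cells 0 members were measured, so nothing is known of them there. The share of all measured genes 2-fold apart was 1.99% in insulin-gated, 2.46% in glucagon-gated, 2.01% in somatostatin-gated and 5.41% in PP-gated cells. Diet and library cannot be told apart with 1 library each.

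The log2 ratio of gluten over HC_only for Ldha in insulin-gated cells was -0.41 (-1.14 to 0.28). For Hk1 in glucagon-gated cells it was 0.18 (-0.19 to 0.56), and for Neurog3 in somatostatin-gated cells -0.31 (-0.64 to 0.03). All 3 intervals span 0. Neurog3 in insulin-gated cells, at 3 against 24 UMIs, had a ratio of -2.31 (-4.68 to -0.59) and too few UMIs to be called. With stricter gates Neurog3 in insulin-gated cells came to 20 UMIs (0.497 CPM) against 40 UMIs (0.634 CPM), a much smaller gap. In T cells Ldha was slightly lower with gluten, at -0.28 (-0.35 to -0.21). The median of all genes measured in T cells was itself -0.13, and 4.45% of them were 2-fold apart. Of the other measured members, Hk2 in myeloid cells was at 0.13 (-0.12 to 0.38), Pdgfra in mesenchymal cells at -0.09 (-0.38 to 0.22) and Sox9 in ductal cells at -0.20 (-0.45 to 0.04). Ldha in ductal cells was the 1 member past 2-fold in any class, at -1.15 (-1.63 to -0.69), where 7.45% of measured genes were 2-fold apart. The share of measured genes 2-fold apart was 4.38% in B, 4.37% in myeloid, 2.78% in endothelial, 5.87% in mesenchymal cells and 8.4% in pericytes. The ductal value of Ldha rests on 28 and 30 cells, and 94 of the 184 HC_only UMIs came from 1 cell.

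**Figure D4:**
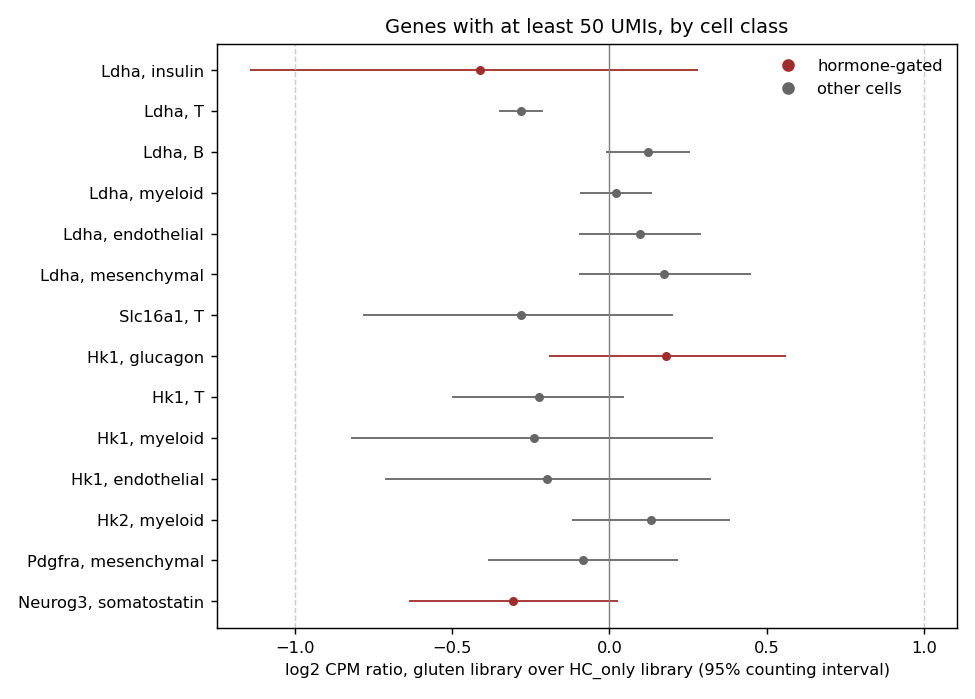
Log2 ratio of CPM, gluten over HC_only (horizontal, 95% exact counting intervals), for each gene and class that reached 50 UMIs where its CPM was higher, among classes of at least 50 cells (vertical). All points lie within the dashed 2-fold lines, and the intervals of the 3 hormone-gated values (red) span 0.

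Insulin-gated cells were also split into 3 equal groups by interferon-response RNA. Ldha stood at 0.571, 0.833 and 0.670 CPM from the lowest to the highest group with gluten. With HC_only the groups held 0.723 (0.395 to 1.21), 0.668 and 1.38 CPM (0.920 to 2.00), from 14, 14 and 28 UMIs, while leukocyte markers stood at 36.6, 37.3 and 34.6 CPM. For a split by insulin share, CPM was computed with hormone UMIs alone left out. Ldha then stood at 4.38, 2.14 and 1.22 from the lowest to the highest share with HC_only and at 1.86, 1.72 and 1.97 with gluten. The intervals of the lowest and highest interferon groups overlapped with HC_only, and the gluten groups held only 7, 11 and 8 UMIs. The highest group had a median of 15.5 interferon UMIs per 10000 with HC_only and 8.77 with gluten, so the groups are not alike between libraries, and a difference between them was not tested.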

How the data were processed

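Per the labels, islet cells were captured and sequenced with 10x Genomics single-cell chemistry. The deposited values are UMI counts per gene and cell barcode, made with Cell Ranger 4.0.0 on mm10 per the submitters' processing notes. Neither the annotation nor the barcode calling is given in the sources used here. The 9 genes and all lists were chosen with earlier results of these data known.

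Cells with at least 500 UMIs, 200 genes and at most 20% mitochondrial UMIs were kept. Hormone gates were as described in the report, and non-endocrine classes needed at least 3 detected markers and 2 more than any other class (acinar cells 10% of UMIs). Cells past several hormone gates were kept apart, and gated cells with 5 or more markers of another class were set aside, which was the treatment of doublets. Counts were summed per class and library and scaled to CPM. Intervals were Poisson for CPM, Clopper-Pearson for shares and exact conditional binomial for ratios. A group without UMIs was given 3 counts over the group for bounds. No test was run, since 1 library per diet gives no replicate. A gene was called at 2-fold with at least 50 UMIs in the group with the higher CPM.

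Named genes were the 9 members, and the 3 genes most like each member that had at least 50 UMIs in 1 of the larger classes. The 2 highest and 2 lowest genes of each list per comparison were also named. The text gives only some of the list genes that this rule names, picked with their values known, and the others are not reported here. The list symbols Fam59a and Ero1b were not matched. Symbols came from the GENCODE vM21 table, which matched 30934 of 31053 rows, and promoter windows from RefSeq. There were 15 alternatives, 12 planned and 3 added after seeing the data. The code was tested on simulated data. Python 3.11.15, numpy 2.4.6, scipy 1.17.1, pandas 2.3.3 and matplotlib 3.10.9 were used.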

Additional observations from a re-analysis of the deposited data

How the results depend on the processing

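Of 954 values recomputed under 15 alternatives, 109 counts stayed within 1.5 times and 697 other values within their counting interval, 7 counts and 139 other values moved further, and 2 values reversed. The count of members lower than in non-endocrine cells was 6 in insulin-gated, 5 in glucagon-gated and 5 in somatostatin-gated cells, and stayed within 1.5 times under every alternative run. In PP-gated cells the count was 3 and went to 5 with stricter gates (20% insulin, 10% others), 5 with cells of 5 or more markers of another class kept, 6 at 1.5-fold, 1 with cells of 3 or more such markers set aside and 6 with cells of several gates given to the highest. Between diets, 0 members were 2-fold apart in insulin-gated cells, where 1 was measured, and in PP-gated cells, where 0 were, and 1 in each with a minimum of 10 UMIs. Sox9 in somatostatin-gated over non-endocrine cells with gluten reversed from a log2 ratio of -1.25 to 0.53 when CPM was averaged over cells. Slc16a1 in PP-gated over non-endocrine cells with gluten reversed from -1.97 to 0.85 with cells of 3 or more other markers set aside, which left fewer cells. The cause of the other changes was not tested. No paired analysis was possible because each diet has 1 library, and for the same reason no library could be left out. Depth limits Aldh1a3 and Gast, which had under 50 UMIs in every class compared.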
